A study of Homo sapiens with 8 samples.

Results

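NFE2L2, which encodes the transcription factor NRF2, and 8 genes of the antioxidant response that NRF2 controls were followed in MCF10A cells cultured in 4 hydrogels. The 9 genes were taken by symbol (NFE2L2, HMOX1, NQO1, GCLC, GCLM, TXNRD1, SRXN1, AKR1C1 and AKR1B10). All 9 were found among the 25369 symbols of the deposited table, and all 9 passed the filter on low values (2 or more libraries with 10 or more normalized counts). MCF10A is a nontransformed human mammary epithelial line, used here at passages 8 to 15, and its RNA was sequenced after 7 days of encapsulation in 2 independent trials, giving 2 libraries per gel. Soft IPNs and stiff IPNs are interpenetrating networks of alginate and reconstituted basement membrane matrix (rBM), and only the stiff ones had their alginate crosslinked with calcium. Soft col:rBM gels combined rBM with collagen-1 (col-1), and stiff col gels had more col-1 and no rBM, so that any comparison with stiff col gels covers several gel components at once. Wells were coated with rBM for all 4 gels, and the labels name no drug or gene change for any of them. The question the gels were made for is how matrix stiffness, and col-1 beside it, alters gene expression in 3D culture.

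NRF2 is held at a low level in unstressed cells because the adaptor KEAP1 presents it to a CUL3 ubiquitin ligase for degradation. When oxidants or electrophiles modify KEAP1, NRF2 accumulates, pairs with a small MAF protein and binds antioxidant response elements (AREs) near its target genes, while BACH1 competes for the same elements. The targets make and recycle glutathione and thioredoxin, supply NADPH, reduce quinones and carbonyls, and break down heme. In mammary epithelial cells, antioxidant defence is known to matter for survival when contact with the matrix is lost. Because NRF2 is controlled largely through its protein, the mRNA of NFE2L2 and the mRNAs of its targets need not move together.

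The letters of the ARE near these genes are shown here because they are what the pathway reads. The 1000 bases before the start of each canonical transcript (hg19, GENCODE 44 lifted to this build) were searched on both strands for TGACNNNGC, where N is any base, and for its stricter form TGACTCAGC, every match of which also matches the looser pattern. The looser pattern was found for 5 of the 9 genes, against 32.5% of 19894 protein-coding promoters searched in the same way, and the stricter one for NQO1, against 1.3% of promoters. Each match is printed 5′ to 3′ on the strand that holds it, with the matched letters in capitals and 10 bases on each side:
NQO1, chr16:69760900-69760928, minus strand, 455 bases before the start: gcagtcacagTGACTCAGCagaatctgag
GCLC, chr6:53410751-53410779, plus strand, 870 bases before the start: aaatatgtgtTGACAGAGCaatgacctgt
GCLM, chr1:94375002-94375030, plus strand, 34 bases before the start: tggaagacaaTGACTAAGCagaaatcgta
TXNRD1, chr12:104609448-104609476, plus strand, 99 bases before the start: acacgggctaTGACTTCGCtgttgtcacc
AKR1B10, chr7:134211451-134211479, plus strand, 858 bases before the start: acagatgctgTGACGTGGCcctggcctgt
The other 4 genes have no such letters in this window, which says nothing of elements farther away. A match is a description of the sequence and binding was not measured. Coordinates given below with each gene span all of its annotated transcripts. The start of the canonical transcript can therefore lie inside them, as it does for GCLC.

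The values are normalized counts, that is, reads counted per gene divided by 1 factor per library and rounded by the authors. They summed to between 14306848 and 17999273 per library, which corresponds to an estimated 13065615 to 18587739 reads on genes. All 10 mammary epithelial markers examined (among them KRT5, TP63 and CDH1) were present in every library. Of 14 markers of other cell types, 9 stayed under 10 normalized counts in all libraries, PTPRC (leukocytes) and COL1A2 (fibroblasts) were at 0 throughout, and CD68 (324 to 5017) and DCN (526 to 1217) were the highest. The summed level of these 14 markers was 2893 to 5409 in soft IPN, 1185 to 2150 in stiff IPN, 1904 to 5668 in soft col:rBM and 2114 to 5616 in stiff col libraries, so it was lower in both stiff IPN libraries than in both soft ones. That difference was carried by CD68, a macrophage marker also found in lysosomes of other cells, which had 4222 and 2092 normalized counts in soft IPN and 1220 and 324 in stiff IPN (limma adjusted p = 0.0127 with the trial as a term, 0.53 without), whereas DCN overlapped (1142 and 752 against 892 and 828). Of the 10 epithelial markers, 3 were also called between the IPNs with the trial as a term and 0 without it (3 at an unadjusted p under 0.05). In stiff IPN the keratin KRT17 was 3.67-fold and the cadherin CDH1 1.88-fold higher, and the integrin ITGB4 was at 0.365 times its soft IPN level (limma adjusted p = 0.00671, 0.0377 and 0.0293). The part of these marker differences in the results was not tested. MCF10A was the only cell line in the gels that were sequenced. In these bulk libraries, fewer MCF10A cells in a given state and less RNA per cell cannot be told apart.

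Levels of different genes are compared only per kilobase of canonical transcript, as the median over the 8 libraries. On this scale NQO1 was the most abundant of the 9 (1563 normalized counts per kb). SRXN1 (811), NFE2L2 (713), GCLC (621), TXNRD1 (519) and AKR1C1 (377) followed. AKR1B10 (85.5), GCLM (64.7) and HMOX1 (29.9) were the least abundant. The ranges over the 8 libraries overlapped between every gene and the next in this order. Sequence shared between genes limits some of these values. Of the 50-base windows of the SRXN1 transcript, 90.6% also occur in an overlapping protein-coding gene on the same strand (ENSG00000270299), and 22.7% of those of AKR1C1 occur in other genes, chiefly its paralog AKR1C2. For AKR1B10 the share was 17.3%, chiefly AKR1B15 and a pseudogene, so the split of reads among these genes is uncertain. Exons of NFE2L2, NQO1 and GCLC overlap antisense lncRNAs, and the library kit did not mark strand.

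**Figure D1:**
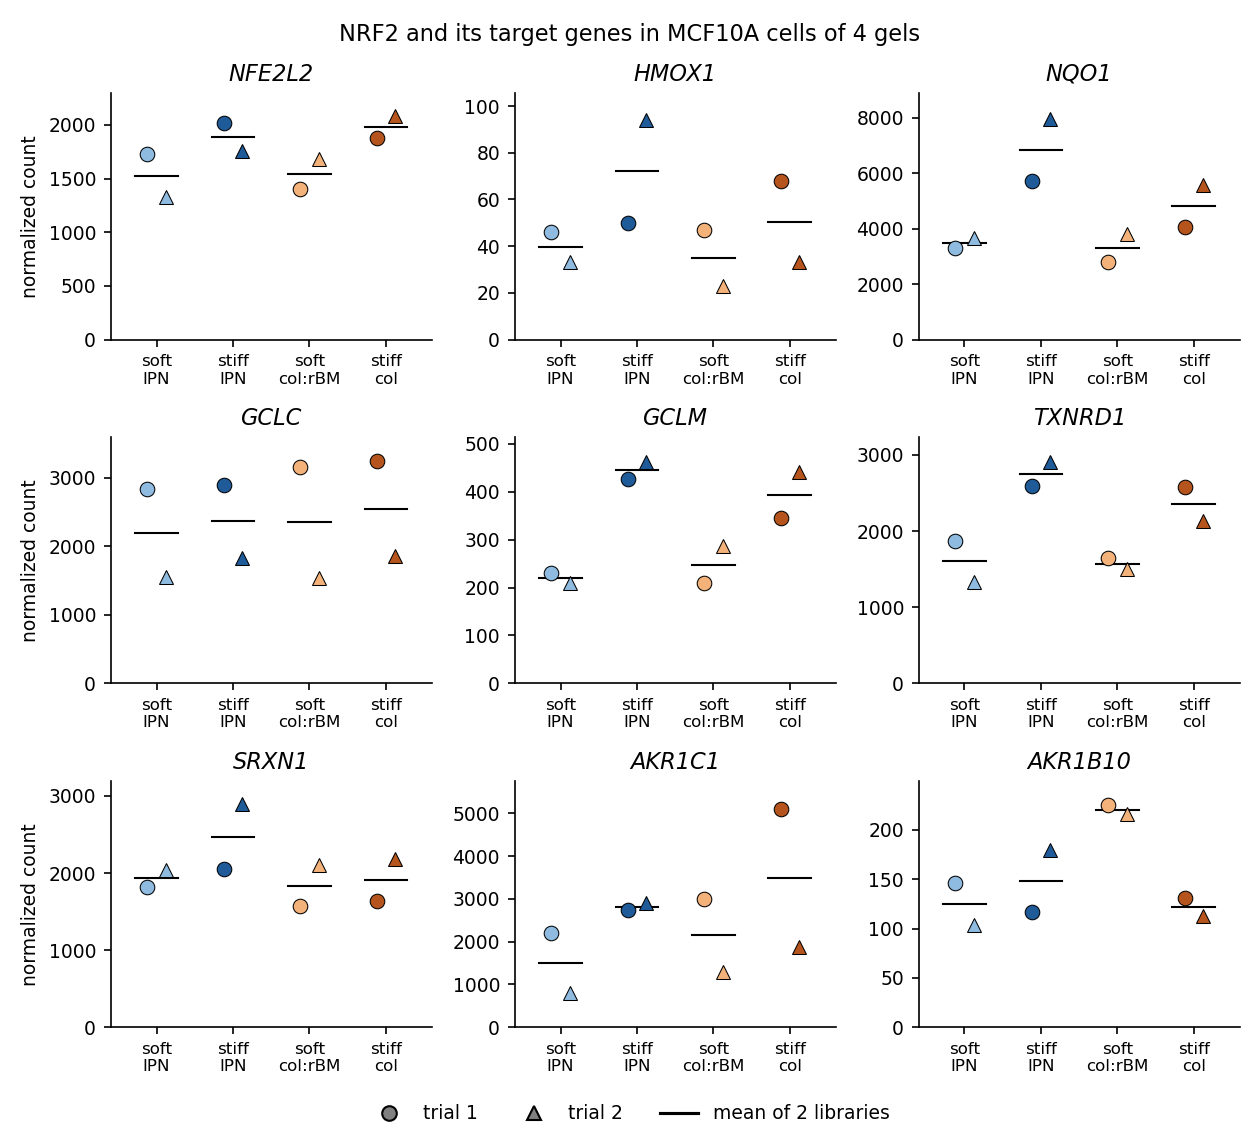
Normalized counts (y axes, linear, starting at 0) of the 9 genes in the 8 libraries, by gel (x axes). Circles are trial 1, triangles trial 2 and bars the mean of 2 libraries. For NFE2L2, NQO1, GCLM and TXNRD1 all 4 stiff-gel libraries lie above all 4 soft-gel libraries, whereas GCLC separates by trial.

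NFE2L2 (chr2:178083395-178257484, minus strand, 5 exons in the canonical transcript), the regulator itself, had 1729 and 1328 normalized counts in soft IPN (trials 1 and 2) and 2020 and 1758 in stiff IPN. It had 1403 and 1683 in soft col:rBM and 1879 and 2085 in stiff col. All 4 libraries of stiff gels were therefore above all 4 of soft gels, by a narrow margin between 1729 and 1758. Within a trial the step from soft to stiff was small, between 0.22 and 0.42 on the log2(value + 1) scale on which all fold changes are given here. The fitted difference was 0.31 between the IPNs (95% interval -0.17 to 0.79) and 0.37 between the collagen gels (-0.12 to 0.85), and neither passed the threshold.

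Glutathione synthesis depends on glutamate-cysteine ligase, whose catalytic subunit is GCLC and whose modifier subunit is GCLM. GCLM (chr1:94350755-94375012, minus strand, 7 exons) had 230 and 210 normalized counts in soft IPN and 426 and 463 in stiff IPN. In the collagen gels it had 210 and 286 in soft col:rBM and 346 and 442 in stiff col. The stiff gels did not overlap with the soft gels in either system, and the step within a trial was 0.89 and 1.14 between IPNs and 0.72 and 0.63 between collagen gels. GCLC (chr6:53362139-53481768, minus strand, 16 exons) behaved differently. Its values were 2841 and 1546 in soft IPN, 2892 and 1833 in stiff IPN, 3161 and 1537 in soft col:rBM and 3240 and 1857 in stiff col. Every trial 1 library was above every trial 2 library whatever the gel, while the step from soft to stiff within a trial ranged from 0.03 to 0.27.

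Thioredoxin reductase 1 (TXNRD1), which uses NADPH to recycle thioredoxin, and sulfiredoxin (SRXN1), which repairs overoxidized peroxiredoxins, belong to the thioredoxin branch. TXNRD1 (chr12:104609557-104744085, plus strand, 17 exons) had 1875 and 1335 normalized counts in soft IPN, 2593 and 2912 in stiff IPN, 1647 and 1499 in soft col:rBM and 2578 and 2135 in stiff col. Its stiff libraries were all above its soft libraries, and the step from soft to stiff was 0.47 and 1.12 in the IPNs and 0.65 and 0.51 in the collagen gels. SRXN1 (chr20:627259-633844, minus strand, 2 exons) had 1816 and 2044 in soft IPN, 2057 and 2890 in stiff IPN, 1571 and 2099 in soft col:rBM and 1642 and 2176 in stiff col. The IPN libraries barely separated, at 2044 against 2057, and the collagen gels overlapped, with steps of 0.06 and 0.05 within a trial.

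NQO1 (chr16:69740899-69760571, minus strand, 6 exons), the quinone reductase often used to read NRF2 activity, had 3291 and 3662 normalized counts in soft IPN and 5726 and 7963 in stiff IPN. It had 2815 and 3821 in soft col:rBM and 4062 and 5566 in stiff col. Stiff libraries were again above soft ones, with steps of 0.80 and 1.12 between IPNs and 0.53 and 0.54 between collagen gels. NQO1 also stands in a gene list that the study drew from these same libraries and from normal and early breast carcinoma (DCIS) patient samples. The part of that list on the IPNs comes from these libraries, so the direction of NQO1 between the IPNs is not independent evidence. HMOX1 (chr22:35776354-35790207, plus strand, 5 exons), the inducible heme oxygenase, was scarce, with 46 and 33 in soft IPN, 50 and 94 in stiff IPN, 47 and 23 in soft col:rBM and 68 and 33 in stiff col. At these counts the 95% Poisson interval of trial 2 was 21.9 to 47.0 in soft IPN and 75.3 to 116 in stiff IPN, whereas in trial 1 the intervals overlapped (33.6 to 60.9 and 37.6 to 64.3). Between the collagen gels they overlapped in both trials (33.4 to 64.8 and 53.1 to 86.1 in trial 1, 15.1 to 34.0 and 23.6 to 44.7 in trial 2). These intervals cover counting error only and leave out variation between cultures and library preparations. They also leave out PCR copies of a molecule, which cannot be recognized in these reads.

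The last pair are aldo-keto reductases, enzymes that reduce carbonyls and lipid aldehydes. AKR1C1 (chr10:5005445-5025475, plus strand, 9 exons) had 2202 and 789 normalized counts in soft IPN, 2737 and 2894 in stiff IPN, 2996 and 1291 in soft col:rBM and 5109 and 1877 in stiff col. The library with the least was soft IPN of trial 2, so the step between IPNs was 0.31 in trial 1 and 1.87 in trial 2, while the collagen gels gave 0.77 and 0.54. AKR1B10 (chr7:134212319-134226164, plus strand, 10 exons) had 146 and 104 in soft IPN, 117 and 180 in stiff IPN, 225 and 216 in soft col:rBM and 131 and 113 in stiff col. It stood apart in the collagen gels, where both stiff libraries were below both soft ones (steps of -0.78 and -0.93), and went in opposite directions in the trials of the IPNs (-0.32 and 0.79).

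**Figure D2:**
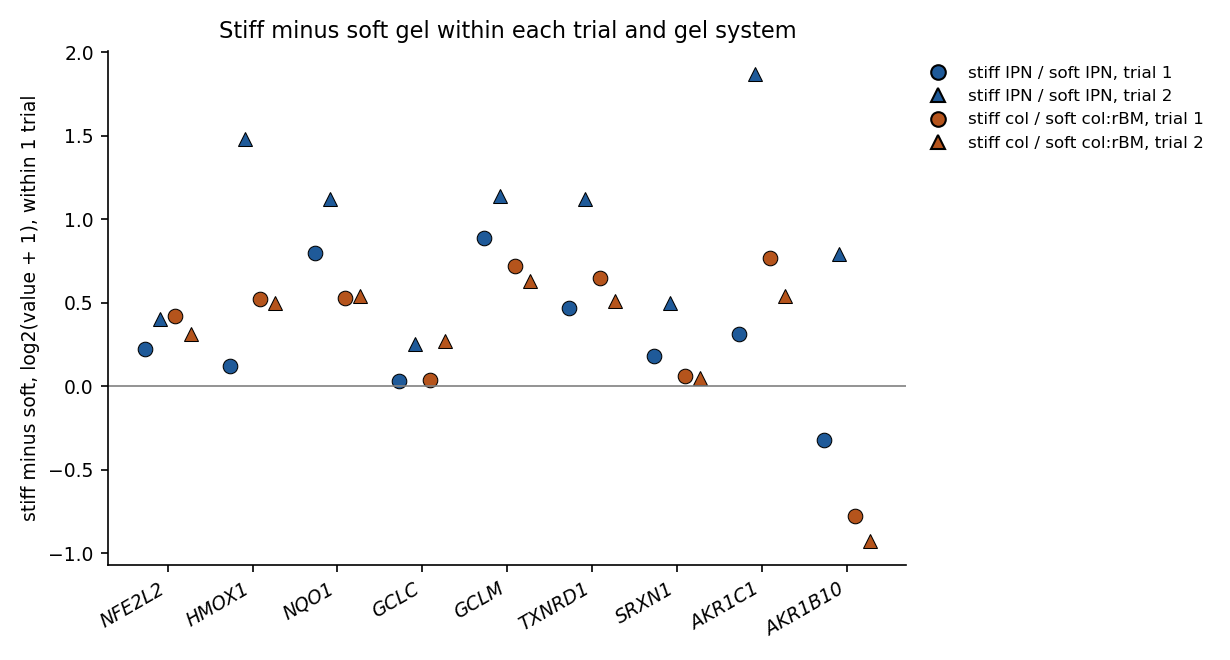
Stiff minus soft gel on the log2(value + 1) scale (y axis) for each of the 9 genes (x axis), computed within 1 trial and 1 gel system. Blue is stiff IPN against soft IPN, orange stiff col against soft col:rBM, circles trial 1 and triangles trial 2, and all 4 points of 8 genes are above 0 while AKR1B10 has 3 of 4 below it.

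Counted by trial and gel system, 8 of the 9 genes were higher in the stiff gel in 4 of 4 pairs, AKR1B10 being the exception, whereas 13.8% of the 13349 genes tested were higher in 4 of 4. Some of these steps were close to no change, such as 0.03 and 0.04 for GCLC in trial 1 and 0.06 and 0.05 for SRXN1 between collagen gels. The 9 genes were chosen with earlier results of these data known, so the count is a description and not an independent test. The 4 genes whose stiff libraries all lay above their soft libraries (NFE2L2, NQO1, GCLM and TXNRD1) compare with 2.02% of all genes, and 0 of the 9 had all stiff libraries below all soft ones (2.49% of all genes). A two-sided exact permutation test of 4 stiff against 4 soft libraries, made for all 9 genes, adds nothing for these 4, because libraries that do not overlap always give its smallest p (0.0286), and it takes no account of trial or gel system. For the other 5 genes the same exact test gave p from 0.143 (HMOX1) to 0.543 (GCLC), unadjusted. The count of 8 was kept when libraries were rescaled by median of ratios, by upper quartile or to the same summed value, with AKR1B10 the exception each time. The last of these rescalings raises the median of all genes by 0.27 between the IPNs and 0.16 over both systems, and it leaves 27.3% of all genes higher in 4 of 4. Under it the separated genes are 3, without NQO1, against 4.13% of all genes.

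Between soft and stiff IPNs all 9 genes were higher in the stiff gel on average, with a median log2 fold change of 0.80 against -0.006 for all genes tested. Both stiff libraries were above both soft ones for 7 of the 9 (all but GCLC and AKR1B10), against 20.5% of all genes, and both were below for 0 of the 9 (21.4%). In the fit with 1 mean per gel, limma with Benjamini-Hochberg adjustment called 0 of 13349 genes (0%) at an adjusted p under 0.05, the 9 included, while 1245 genes (9.33%) had an unadjusted p under 0.05, among them GCLM, NQO1 and TXNRD1. The study tested counts with DESeq2 and did report genes called between the IPNs, so this 0 belongs to the fit used here. When the trial was added as a term, 511 genes (3.83%) were called, 226 of them higher in stiff IPN (1.69%), and 3 of the 9 genes rose. GCLM rose 2.02-fold (log2 1.01, SE 0.19), NQO1 1.94-fold (log2 0.96, SE 0.15) and TXNRD1 1.74-fold (log2 0.80, SE 0.17), each in 2 of 2 trials. Their adjusted p values from limma were 0.0374, 0.0262 and 0.0478, against 0.491 for each without the trial. Over all alternatives tried, the adjusted p of GCLM ran from 0.0215 to 0.999, that of NQO1 from 0.00583 to 0.999 and that of TXNRD1 from 0.00501 to 0.999.

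The remaining genes were not called between the IPNs with the trial as a term. AKR1C1 had the largest estimate of the 9, 1.09 (95% interval 0.30 to 1.88, limma adjusted p = 0.108, 0.000526 to 0.999 over the alternatives). HMOX1 had 0.80 (-0.30 to 1.9), SRXN1 0.34 (0.02 to 0.66) and NFE2L2 0.31 (-0.10 to 0.73). GCLC and AKR1B10 were lowest, at 0.14 (-0.20 to 0.47) and 0.23 (-0.41 to 0.88).

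The calls between the IPNs depended on which libraries entered the fit. With the trial as a term, 0 of the 9 genes were called without soft IPN replicate 2. Only NQO1 was called without soft IPN replicate 1, stiff col replicate 1 or stiff col replicate 2 (limma adjusted p = 0.0433, 0.0359 and 0.0362). NQO1 and GCLM were called without stiff IPN replicate 2, soft col:rBM replicate 1 or soft col:rBM replicate 2. Without stiff IPN replicate 1, which leaves 1 library in that gel, the estimates were 1.82 for AKR1C1 and 1.66 for HMOX1. Those of TXNRD1, NQO1 and GCLM were 1.03, 1.02 and 0.96. In each of these fits a gel with 1 library left is assumed to vary like the other gels.

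**Figure D3:**
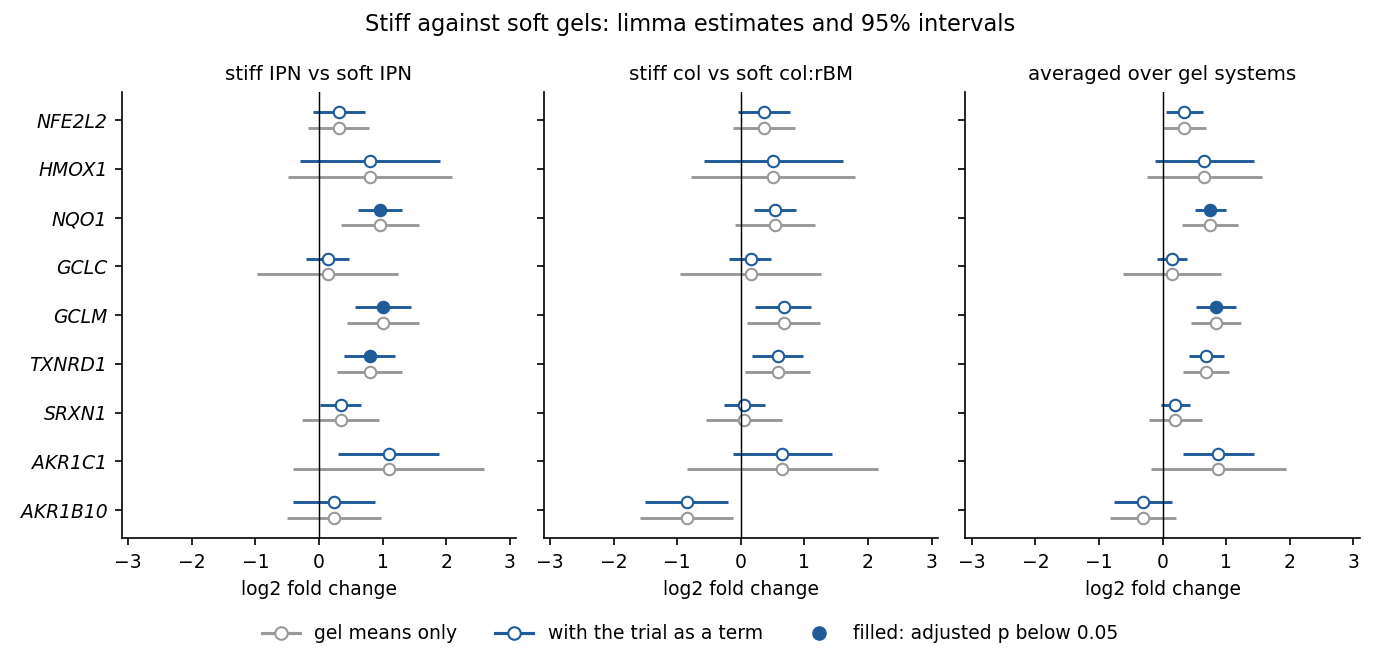
Log2 fold changes of stiff against soft gels (x axes) with 95% intervals for the 9 genes (y axis), from limma on 8 libraries. Grey is the fit with gel means, blue the fit with the trial as a term, and filled points have an adjusted p below 0.05, which holds for NQO1, GCLM and TXNRD1 between IPNs and for NQO1 and GCLM over both systems.

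In the collagen gels 8 of the 9 genes had the higher average in stiff col gels, with a median of 0.51 against -0.004 for all genes. Both stiff libraries were above both soft ones for NFE2L2, NQO1, GCLM and TXNRD1 (4 of 9, against 9.51% of all genes). AKR1B10 was below in both (9.5% of all genes). Limma called 0 genes (0%) here in either fit, with 140 genes (1.05%) at an unadjusted p below 0.05 in the fit with gel means and 497 (3.72%) when the trial was a term. The estimates with the trial as a term were 0.67 for GCLM (95% interval 0.23 to 1.11), 0.58 for TXNRD1 (0.18 to 0.98) and 0.54 for NQO1 (0.20 to 0.87). AKR1C1 had 0.66 (-0.13 to 1.44) and HMOX1 0.51 (-0.58 to 1.61), and GCLC and SRXN1 had 0.15 and 0.06. AKR1B10 had -0.85 (-1.5 to -0.20), with an adjusted p of 1 from limma in both fits (0.163 to 1 over the alternatives).

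Averaged over both gel systems, the stiff gels had a median log2 fold change of 0.66 over the 9 genes, against -0.002 over all genes. No gene was called by limma in the fit with gel means (0%), where 923 (6.91%) were below 0.05 unadjusted. With the trial as a term, 80 genes (0.599%) were called, of which 42 were higher in the stiff gels (0.315%), and these included 2 of the 9. NQO1 rose by 0.75 (SE 0.10, adjusted p = 0.0329, 0.00397 to 1 over the alternatives) and GCLM by 0.84 (SE 0.14, adjusted p = 0.0495, 0.011 to 1), both in 4 of 4 pairs. TXNRD1 had 0.69 (95% interval 0.41 to 0.97, adjusted p = 0.0608) and NFE2L2 0.34 (0.05 to 0.63, adjusted p = 0.2). With the trial as a term, 0 of the 9 were called without soft IPN replicate 2 or without any single collagen gel library, NQO1 was called without soft IPN replicate 1, 5 genes were called when stiff IPN replicate 1 was dropped and 4 when stiff IPN replicate 2 was.

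Whether the stiffness step differed between the gel systems was tested as the step in collagen gels minus that in IPNs. AKR1B10 had the largest such difference, -1.09 (95% interval -2.00 to -0.17 with the trial as a term), and it was not called (limma unadjusted p = 0.0258, adjusted p = 0.427, 0.0313 to 1 over the alternatives). The lowest of these came from the fit without stiff IPN replicate 1, in which the difference of AKR1B10 was -1.52. For the other 8 genes the difference ran from -0.44 (AKR1C1) to 0.05 (NFE2L2), and the intervals, for example -0.90 to 0.05 for NQO1 and -0.97 to 0.29 for GCLM include 0. Of all genes, 2 (0.015%) were called with the trial as a term, and 0 with gel means (278, or 2.08%, at an unadjusted p under 0.05).

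Set against stiff IPN, stiff col gels had lower values of NQO1 and TXNRD1 in both libraries (2 of 9 genes, against 15.8% of all genes) and both libraries above for 0 of the 9 (15.1%). The nearest libraries lay at 5566 (stiff col) and 5726 (stiff IPN) normalized counts for NQO1, and at 2578 and 2593 for TXNRD1. The estimates with the trial as a term were -0.51 for NQO1 (95% interval -0.84 to -0.17), -0.37 for SRXN1 (-0.69 to -0.05), -0.23 for TXNRD1 (-0.63 to 0.17) and -0.18 for GCLM (-0.63 to 0.26). None of the 9 was called by limma in either fit, with adjusted p values of 0.121 for NQO1 and 0.213 for SRXN1, although 330 genes (2.47%) were called with the trial as a term. With gel means limma called 0 genes (0%), and 838 (6.28%) were at an unadjusted p under 0.05. Over the alternatives the estimate of NQO1 ran from -0.74 to -0.27. It was -0.57 without stiff IPN replicate 1 and with the trial as a term. NFE2L2 hardly differed between the stiff gels, at 0.07 (-0.34 to 0.48). Under rescaling to the same summed value, which lowers the median of all genes here by 0.11, NFE2L2 and GCLC turned from higher to lower in stiff col.

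Between the soft gels the 9 genes had a median of 0.02. Of the 9, 0 were lower in both soft col:rBM libraries than in both soft IPN libraries (10.4% of all genes). AKR1B10 alone was higher in both, and 1 of 9 is near the share of all genes (10.3%). It was 1.78-fold higher (log2 0.83, 95% interval 0.19 to 1.48 with the trial as a term), and the adjusted p from limma was 0.898, with 0 genes (0%) called in either fit and 190 (1.42%) and 635 (4.76%) at an unadjusted p below 0.05. NQO1 (-0.08), SRXN1 (-0.09) and TXNRD1 (-0.01) were close to 0 and turned positive under rescaling to the same summed value, which raises all genes here by 0.11. Averaged over both stiffnesses, the collagen gels differed from the IPNs by -0.29 for NQO1 (-0.53 to -0.06, limma adjusted p = 0.248). For the other 8 genes they differed by no more than 0.38 in size. With the trial as a term 0 of the 9 were called, against 124 of all genes (0.929%). With gel means 0 genes (0%) were called by limma, with 697 (5.22%) at an unadjusted p under 0.05.

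The 2 trials differed for many genes. With gel as a term, limma called 3617 genes (27.1%) between trials, 1693 of them higher in trial 2 (12.7%) and 1924 lower (14.4%), and 4 of the 9 genes were among them. GCLC fell by 0.84 from trial 1 to trial 2 (SE 0.10, adjusted p = 0.00271) and AKR1C1 by 1.01 (SE 0.24, adjusted p = 0.0199). NQO1 and SRXN1 rose by 0.38 and 0.37 (SE 0.10 each, adjusted p = 0.0303 and 0.0282). GCLC was the 1 gene of the 9 whose trial 1 libraries all lay above its trial 2 libraries, which 10% of all genes showed. For AKR1C1 trial 2 was lower in soft IPN, soft col:rBM and stiff col, and not in stiff IPN (2737 and 2894 normalized counts). The 4 calls depended on the libraries kept. Without any single soft col:rBM or stiff col library, GCLC alone kept its call. Without either soft IPN library the call of AKR1C1 was lost, and without either stiff IPN library all 4 were kept.

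**Figure D4:**
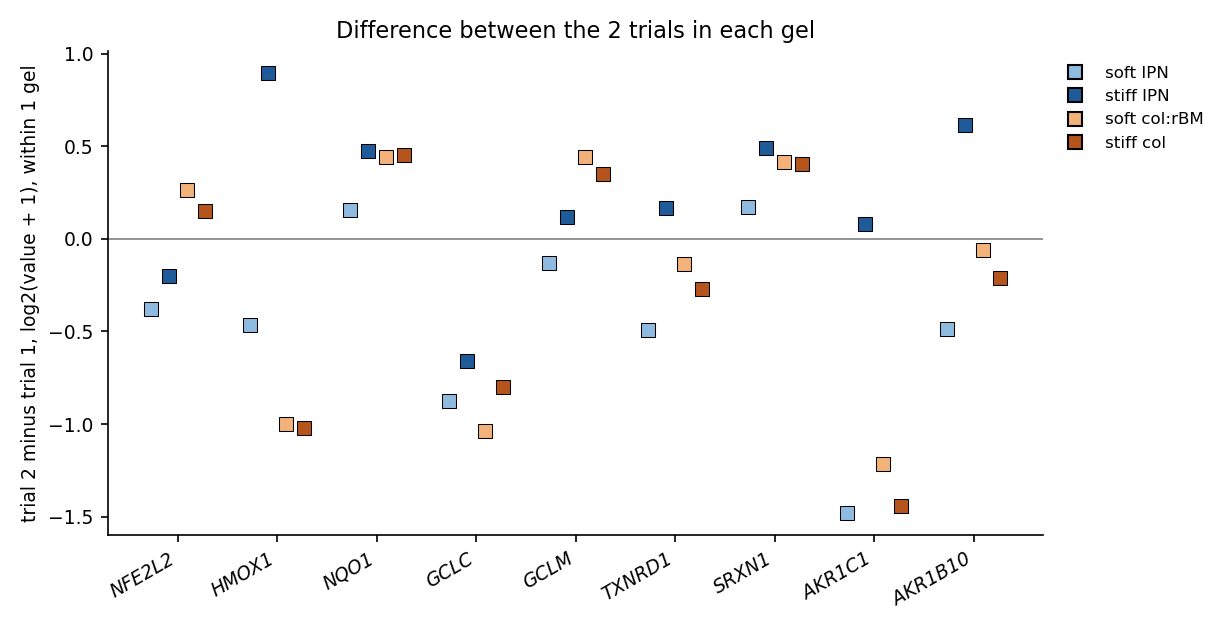
Trial 2 minus trial 1 on the log2(value + 1) scale (y axis) for each gene (x axis), 1 square per gel. GCLC is below 0 in all 4 gels, NQO1 and SRXN1 are above 0 in all 4, and stiff IPN departs from the other gels for HMOX1, AKR1C1 and AKR1B10.

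The wider pathway was read from lists of 39 further NRF2 targets, 10 regulators and 15 antioxidant enzymes that are not counted as NRF2 targets here. Of the 39 targets, 36 had enough reads to be tested. Between the IPNs 25 were higher and 11 lower in the stiff gel (median 0.20), between the collagen gels 29 were higher and 7 lower (median 0.26), and 0 were called by limma in either fit. Of all 13349 genes tested, 6603 and 6577 were higher. The 36 targets also leaned by gel system, with 31 lower in soft col:rBM than soft IPN and 26 lower in stiff col than stiff IPN. Of all 13349 genes, 6732 and 6602 were lower. Such counts moved with scaling: under rescaling to the same summed value, glutathione and thioredoxin targets higher in stiff IPN went from 7 to 11 of 11. Those lower in soft col:rBM than soft IPN went from 10 to 6 of 11. NADPH-supplying targets and iron and heme targets lower there each went from 5 to 3 of 6, and detoxification targets from 8 to 7 of 10. Glutathione and thioredoxin targets lower in stiff col than stiff IPN went from 9 to 11 of 11. In 4 of 4 pairs 18 of the 36 (50%) were higher in the stiff gel and 4 (11.1%) lower, against 13.8% and 15.7% of all genes. The groups of targets differed in these counts.

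Detoxification genes, which encode carbonyl, epoxide and quinone metabolizing enzymes, were higher in 4 of 4 pairs for 8 of 10, with a median of 0.46 over both systems. AKR1C2, the near-identical paralog of AKR1C1, had 1550 and 855 normalized counts in soft IPN, 2299 and 3530 in stiff IPN, 1352 and 1071 in soft col:rBM and 2244 and 2082 in stiff col. All its stiff libraries were above its soft ones, and its estimate between IPNs, 1.31 (95% interval 0.63 to 1.98), had an adjusted p of 0.051 from limma with the trial as a term. AKR1C3, a further paralog, had 0.56 between collagen gels (0.22 to 0.89, adjusted p = 0.828). ALDH3A1, an aldehyde dehydrogenase, followed the gel system: it fell by 1.78 in collagen gels averaged over both stiffnesses (adjusted p = 0.046 with the trial as a term, 0.385 without), with 548 and 393 in soft IPN, 514 and 556 in stiff IPN, 66 and 178 in soft col:rBM and 122 and 298 in stiff col.

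NADPH-supplying genes were higher in 4 of 4 pairs for 4 of 6, with a median of 0.30 over both systems. IDH1, a cytosolic isocitrate dehydrogenase, had 1370 and 1568 normalized counts in soft IPN, 1847 and 2866 in stiff IPN, 1203 and 1571 in soft col:rBM and 1436 and 1948 in stiff col. Its step between IPNs was 0.65 (95% interval 0.31 to 0.99, limma adjusted p = 0.0519 with the trial as a term). TKT, a transketolase, was lower in stiff IPN in both trials (-0.60 and -0.35) and higher in stiff col in both (0.33 and 0.16).

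Glutathione and thioredoxin genes were higher in 4 of 4 pairs for 5 of 11 and lower in 4 of 4 for 2, with a median of 0.23 over both systems. TXN, thioredoxin itself, had 5952 and 5281 normalized counts in soft IPN, 7653 and 10036 in stiff IPN, 5204 and 5512 in soft col:rBM and 6864 and 6799 in stiff col. Its stiff libraries were all above its soft ones, with an averaged step of 0.50 (95% interval 0.22 to 0.77, limma adjusted p = 0.0935 with the trial as a term). PRDX1, the peroxiredoxin that thioredoxin reduces, had 0.55 between IPNs (0.24 to 0.87, adjusted p = 0.0611), and -0.56 in stiff col against stiff IPN (adjusted p = 0.0766). Iron and heme genes showed no such lean, with 1 of 6 higher and 2 of 6 lower in 4 of 4 pairs and an averaged median of -0.03 that turned to 0.13 under rescaling to the same summed value. BLVRB, a biliverdin reductase, was at -0.74 between IPNs (-1.28 to -0.19, limma adjusted p = 0.113 with the trial as a term). FTH1, the ferritin heavy chain, was at 0.38 between collagen gels (-0.03 to 0.79, adjusted p = 1). Of OSGIN1, TRIM16 and TRIM16L, the other targets, 0 of 3 were higher in 4 of 4 pairs.

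**Figure D5:**
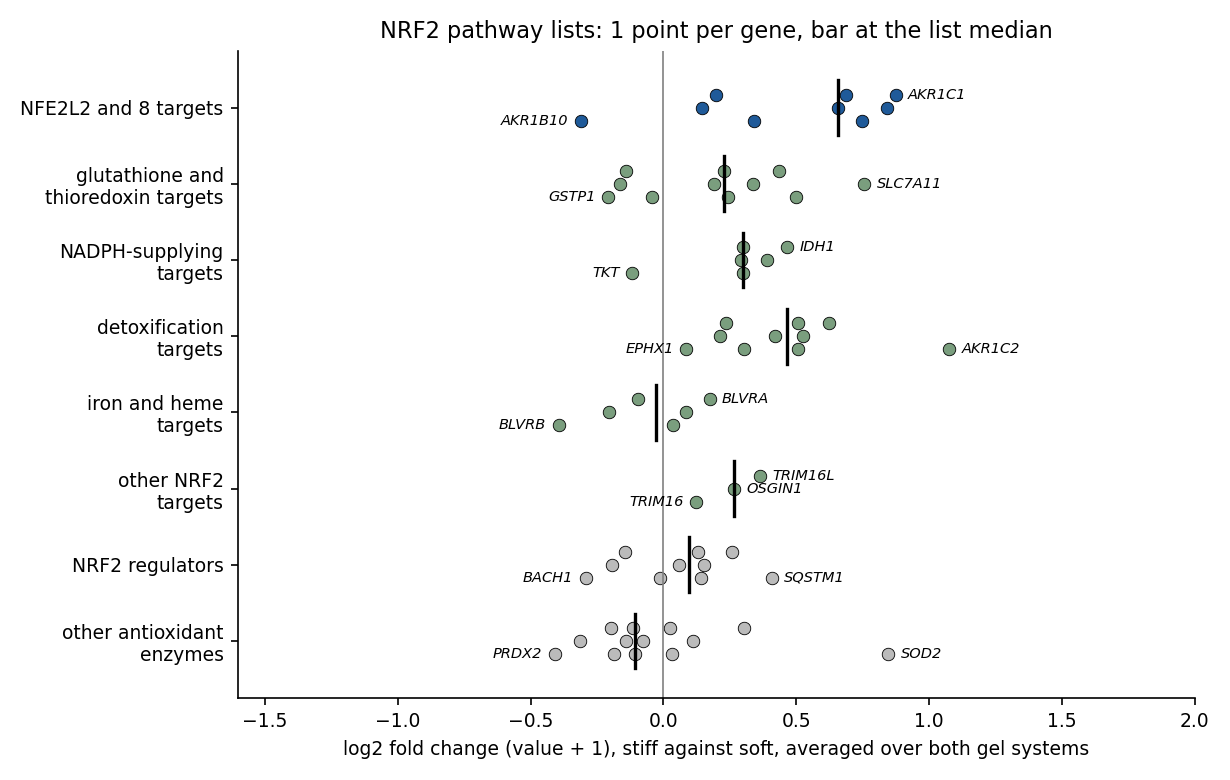
Log2 fold change (value + 1) of stiff against soft gels averaged over both gel systems (x axis) for each tested gene of 8 lists (y axis), 1 point per gene, with the bar at the list median. The medians run from 0.66 for NFE2L2 and its 8 targets and 0.46 for detoxification targets to -0.11 for other antioxidant enzymes.

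Among the regulators, 2 of 10 (CUL3 and RBX1) were higher and 2 (KEAP1 and MAFF) lower in the stiff gel in 4 of 4 pairs, and 0 were called by limma in any of the gel comparisons in either fit. KEAP1, the repressor, had 1424 and 1044 normalized counts in soft IPN, 1004 and 1000 in stiff IPN, 1187 and 889 in soft col:rBM and 1172 and 775 in stiff col. Its averaged step was -0.20 (95% interval -0.47 to 0.08, adjusted p = 0.391 with the trial as a term). BACH1, the competitor of NRF2, ranged from 945 to 1239 outside soft IPN replicate 1 (850) and stiff IPN replicate 2, where it was lowest at 483. Of the small MAF genes, MAFK was at -0.74 in stiff col against stiff IPN (-1.12 to -0.36, adjusted p = 0.0634 with the trial as a term), and MAFF and MAFG had 731 to 1209 and 572 to 1004 normalized counts.

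The other antioxidant enzymes leaned the other way in the IPNs, with 4 of 13 tested higher and 9 lower in stiff IPN (median -0.14), a lean that reversed to 9 higher and 4 lower (median 0.13) under rescaling to the same summed value. In 4 of 4 pairs 3 were higher and 5 lower. SOD2, the mitochondrial superoxide dismutase, was the 1 that was called, rising by 0.85 over both systems (adjusted p = 0.0368 from limma with the trial as a term, 0.579 without). It had 5511 and 3693 normalized counts in soft IPN, 6392 and 5976 in stiff IPN, 2224 and 2226 in soft col:rBM and 5896 and 4678 in stiff col, so that soft col:rBM was the low gel. PRDX2, a cytosolic peroxiredoxin, was at -0.69 between IPNs (95% interval -1.07 to -0.31, adjusted p = 0.058).

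Across the 8 libraries the 9 genes did not share 1 pattern. Pearson's r of log2 values, given as a description over 8 libraries that share gels, trials and depth, was highest between NQO1 and GCLM (0.91), NQO1 and SRXN1 (0.85) and NFE2L2 and GCLM (0.84), and lowest between GCLC and SRXN1 (-0.67). NFE2L2 correlated with its targets from -0.29 (AKR1B10) to 0.84. Of all genes tested, those most like NFE2L2 over the 8 libraries were ZSCAN12, C6orf211 and CCNH (r = 0.947 each). Those most like NQO1 were PSMA3 (0.984), ZC3H12A (0.98) and RFC4 (0.975), and those most like HMOX1 were INSIG1 (0.978), USP54 (0.977) and LOC645638 (0.977).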

How the data were processed

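RNA of MCF10A cells from 4 gels, 2 libraries each, was sequenced (50-base paired reads, a kit that does not mark strand). The authors trimmed, aligned to hg19, counted reads per gene with HTSeq and normalized with DESeq2. The submitters' processing notes name Trim Galore 0.3.3, TopHat2 2.0.13, SAMtools 1.1 and R 3.2.0, whereas the study's methods name Bowtie2. The gene annotation and the strand setting of the counting are not given in the sources used here. The deposited values are a signal, whole-number counts divided by 1 factor per library and rounded. The inverse of each factor, by which reads are multiplied to give the deposited value (0.8038 to 1.2418), was read back from the values. 3 reads correspond to 2.41 to 3.73 normalized counts, so depth limits HMOX1 most. No count test was run, since the values were already scaled.

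The 28 symbols that a spreadsheet had turned into dates were left out. Genes with at least 10 normalized counts in at least 2 libraries (13349) were fitted as log2(value + 1) with limma 3.58.1 (trend and robust, statmod 1.5.0, R 4.3.3). All 8 libraries entered, with a mean for each gel, and Benjamini-Hochberg adjustment ran over every gene tested. A second fit added the trial as a block. The labels give replicate numbers only, and reading them as the 2 independent trials of the study is an assumption. The trial differences correlated in all 6 gel pairs, from r = 0.28 between soft IPN and stiff IPN to 0.82 between the collagen gels. Stiff IPN correlated with soft col:rBM at 0.39 and with stiff col at 0.4. The calls of NQO1, GCLM and TXNRD1 between the IPNs were made only with this block. Single genes were also compared by two-sided exact permutation tests, for which 2 libraries against 2 cannot go below p = 0.333. Alternatives were other pseudocounts (0.5 and 5), filters, rescalings, the 2 gels alone and leaving out each library. The limma step was tested on simulated data. Transcript, ARE and shared-sequence data come from hg19 and GENCODE 44 lifted to it (Python 3.11.15, numpy 2.4.6, scipy 1.17.1, pandas 2.3.3, matplotlib 3.10.9).

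The genes and lists were chosen with earlier results of these data known. Beyond the 9 genes, the text names in each list the called gene or that with the smallest p in a comparison, the 3 genes most correlated with NFE2L2, NQO1 and HMOX1, and KEAP1, BACH1 and the small MAF genes. CUL3 and RBX1 were named after their values were seen. Results of 1 gene of the NADPH-supplying list are not reported here.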

Additional observations from a re-analysis of the deposited data

Results flagged for a closer look

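MAFK, a small MAF partner of NRF2, had stiff minus soft differences of opposite sign in the gel systems. On the log2(value + 1) scale they were 0.21 and 0.48 in the IPNs (trials 1 and 2) and -0.3 and -0.15 in the collagen gels. The difference of -0.57 had an unadjusted p of 0.0412 with the trial as a term and 0.0767 without it, and adjusted p values of 0.474 and 1 from limma. MAFK was not alone, since TKT and the detoxification gene EPHX1 were lower in stiff IPN and higher in stiff col in both trials. EPHX1 had -0.78 and -0.07 in the IPNs and 0.73 and 0.45 in the collagen gels. The differences of EPHX1 (1.01) and TKT (0.72) had limma adjusted p values of 0.339 and 0.364 with the trial as a term.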

How the results depend on the processing

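With the replicate block, alone or together with median-of-ratios rescaling, upper-quartile rescaling, rescaling to the same summed value or a pseudocount of 5, 3 of the 9 genes were called between the IPNs each time, and 2, 2, 2, 3 and 2 over both systems. In the same order, genes called were 511, 517, 465, 856 and 540 between the IPNs, 330, 327, 331, 370 and 360 between the stiff gels, 80, 76, 64, 101 and 90 for averaged stiffness, 124, 124, 127, 141 and 147 for gel system and 2, 2, 2, 5 and 2 for the difference of the steps. Without the block, 1 gene was called between the IPNs with only the 2 gels compared and 4 between the stiff gels with a pseudocount of 5. The block changed no other call of the 9.

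Leaving out 1 library, with and without the block, the genes called ran from 0 to 2666 between IPNs, 0 to 30 between collagen gels, 0 to 2188 between stiff gels, 0 to 21 between soft gels, 0 to 1929 for averaged stiffness, 0 to 1552 for gel system, 0 to 657 for the difference of the steps and 1206 to 5830 between trials. Of the 9 genes, the same runs called 0 to 5, 0 to 0, 0 to 3, 0 to 0, 0 to 5, 0 to 1, 0 to 2 and 1 to 6. Directions turned for some genes when a library was left out, the cause of which was not tested. Between IPNs the log2 fold change ran from -0.303 to 0.574 for GCLC, -0.2 to 0.669 for AKR1B10 and -0.063 to 1.664 for HMOX1. Between collagen gels it ran from -0.366 to 0.674 for GCLC, -0.151 to 0.267 for SRXN1 and -0.067 to 1.377 for AKR1C1, and averaged from -0.115 to 0.405 for GCLC. For 36 pairs of a gene of the 9 and a comparison, which leave out most of those between gel systems, the alternatives gave 1013 values, of which 931 kept their direction and side of the threshold, 52 newly passed it, 14 no longer passed it and 16 turned, each of these 16 without a library. Outside these 36, rescaling to the same summed value turned NFE2L2 and GCLC between the stiff gels and NQO1, SRXN1 and TXNRD1 between the soft gels.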
